A study of Mus musculus with 8 samples.

Results

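The genes described here are 10 known tissue macrophage genes, Cd68, Csf1r, Adgre1, Cx3cr1, C1qa, C1qb, C1qc, Cd14, Itgam and Cd163. They were looked up by gene symbol, with the row of the highest mean used where a symbol was repeated, and all 10 were found among the 52143 deposited genes. RNA-Seq was run on distal colon from female mice, 4 samples labelled Control (Villin1-Cre-ERT) and 4 labelled SiglecXII (SIGLEC12-Villin1-Cre-ERT). Mice of both groups carried the Cre-ERT transgene under the Villin1 promoter, which is active in intestinal epithelium and not in macrophages, and both received tamoxifen (10 mg/ml) for 5 days from 8 weeks of age. Colons were taken 7 days after the last dose, on day 12. In SiglecXII mice, the recombination that tamoxifen induces allows the human SIGLEC12 gene to be expressed in epithelial cells. The comparison asks how the colon differed when the human receptor was expressed in its epithelium and no carcinogen had been given.

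Values are TPM, a gene's share of all transcripts after correction for length, scaled to a total of 1000000 in every sample, and were deposited as log2(TPM + 1). They hold no record of sequencing depth, and counting error is therefore not given. In each sample 12748 to 13715 genes reached a TPM of 1, and the 10 highest genes held from 11.5% to 20.6% of all TPM. With no row for SIGLEC12, the groups could not be verified by its expression. The colon epithelium genes (Epcam, Vil1, Muc2 and 9 others) summed to between 15710 and 20872 TPM in all 8 samples. The median gene of SiglecXII samples 3 and 4 lay 0.16 and 0.30 log2 units below the mean of all samples, whereas the other samples were between -0.04 and 0.15. The design text speaks of 3 mice per condition while the labels list 4 samples in each group, so p-values measure the spread between these samples, which may in part be technical.

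Macrophages of the colon lamina propria are mostly replenished from blood monocytes, depend on the receptor Csf1r for survival, and clear dead cells and microbes below the epithelium. They are known for high expression of the fractalkine receptor Cx3cr1 and of complement component C1q, which marks dying cells and immune complexes for uptake. Many of their genes depend on the transcription factor PU.1, the product of Spi1, which binds purine-rich sequences known as PU boxes.

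The genes lie at 8 places in the mouse genome. C1qa, C1qb and C1qc, which encode the A, B and C chains that assemble into C1q, are neighbors on the minus strand of chromosome 4 and span 18675 bases, from 136880129 to 136898803 in GENCODE M21 on GRCm38. C1qb (ENSMUSG00000036905) is at 136880129 to 136886187, C1qc (ENSMUSG00000036896) at 136889804 to 136893065 and C1qa (ENSMUSG00000036887) at 136895917 to 136898803. Of the other genes, Cd68 (ENSMUSG00000018774) is on chromosome 11 at 69664213 to 69666153, Adgre1 (ENSMUSG00000004730) on chromosome 17 at 57358691 to 57483527 and Cx3cr1 (ENSMUSG00000052336) on chromosome 9 at 119901616 to 120069879. Itgam (ENSMUSG00000030786) is on chromosome 7 at 128062640 to 128118491 and Cd163 (ENSMUSG00000008845) on chromosome 6 at 124304656 to 124330527. Csf1r (ENSMUSG00000024621) and Cd14 (ENSMUSG00000051439) share chromosome 18, at 61100598 to 61132149 and at 36725067 to 36726798. The deposited values give 1 level per gene and do not resolve its transcripts or exons.

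For reads to be assigned to one gene, its sequence has to differ from that of others. Cd68, Adgre1, C1qa, C1qb, C1qc and Cd14 shared 0 of their windows of 31 bases with another gene, and Csf1r, Cd163 and Cx3cr1 shared between 0.38% and 1.75%. Itgam shared 68.1% of its windows, nearly all with Gm49368, an annotated gene that overlaps it on the same strand and was listed at 0 to 0.271 TPM. The division of reads between Itgam and Gm49368 is uncertain. The annotated span of Cx3cr1 also overlaps 9 other genes.

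The bases before the start sites are shown for those of these genes that hold a PU box (GAGGAA, searched on both strands, where the reverse strand reads TTCCTC). Of 6 genes with a RefSeq entry, 4 had at least 1 such match in the 250 bases before the start, namely Cd68, C1qb, C1qc and Itgam, and Cx3cr1 and Cd163 had none. Windows of the same length held a match in 23.3% of 32851 RefSeq start sites. Capitals mark the match, the build is GRCm38.p6, and each sequence reads 5′ to 3′ toward its gene. That of C1qc stops after 99 of the 250 bases, where the GENCODE gene begins. For Cx3cr1 the whole window of 250 bases lies within the GENCODE gene, so the bases before the GENCODE start were not searched.
Cd68, chr11:69666171-69666420, minus strand: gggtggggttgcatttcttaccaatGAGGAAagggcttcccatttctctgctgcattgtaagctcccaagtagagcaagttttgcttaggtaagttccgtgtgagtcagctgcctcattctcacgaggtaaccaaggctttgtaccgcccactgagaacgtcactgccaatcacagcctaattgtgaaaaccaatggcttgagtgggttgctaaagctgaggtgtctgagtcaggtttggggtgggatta
C1qb, chr4:136886201-136886450, minus strand: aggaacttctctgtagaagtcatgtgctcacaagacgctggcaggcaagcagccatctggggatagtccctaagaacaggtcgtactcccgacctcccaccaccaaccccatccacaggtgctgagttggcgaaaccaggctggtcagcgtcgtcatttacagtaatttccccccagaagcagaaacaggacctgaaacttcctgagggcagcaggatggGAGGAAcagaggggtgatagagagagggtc
C1qc, chr4:136893066-136893164, minus strand: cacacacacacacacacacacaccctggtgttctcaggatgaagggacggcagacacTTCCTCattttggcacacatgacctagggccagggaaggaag
Itgam, chr7:128062390-128062639, plus strand: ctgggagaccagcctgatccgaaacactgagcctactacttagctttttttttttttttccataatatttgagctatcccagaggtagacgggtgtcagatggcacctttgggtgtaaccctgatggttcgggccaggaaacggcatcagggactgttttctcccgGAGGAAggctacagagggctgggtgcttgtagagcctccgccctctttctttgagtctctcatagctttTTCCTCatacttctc
The match began 225 bases before the RefSeq start in Cd68, 30 in C1qb, 193 in C1qc, and 84 and 15 in Itgam. A match of these letters does not show that a factor binds there. Whether these matches bear on the levels or the co-variation of the genes was not tested. Spi1 itself was at 1.07, 0.696, 0.386 and 0.849 TPM in Control samples 1 to 4 and at 0.268, 0.470, 0.363 and 0.210 TPM in SiglecXII samples 1 to 4.

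In Control colons, Cd14, the co-receptor for bacterial lipopolysaccharide, was the most abundant of the 10 genes, at 45.6 ± 11.2 TPM (SD, n = 4). The C1q chains followed, at 4.98 ± 2.78 TPM for C1qa, 4.50 ± 2.69 TPM for C1qb and 3.50 ± 1.46 TPM for C1qc. Next in the mean log2 level were Itgam, Cd68, Csf1r, Cx3cr1, Adgre1 and Cd163. Of neighbors in that order, the 4 Control samples did not overlap between Cd14 and C1qa or between Adgre1 and Cd163, and overlapped in all other neighboring genes. The adhesion receptor Adgre1, whose product (F4/80) is the classic surface marker of mouse macrophages, was at 0.283 ± 0.106 TPM, and the hemoglobin scavenger receptor Cd163 at 0.0529 ± 0.0275 TPM. Thus 5 of the 10 genes (Csf1r, Adgre1, Cx3cr1, Itgam and Cd163) did not reach a TPM of 1 in 4 samples, and the 5 that did (Cd68, C1qa, C1qb, C1qc and Cd14) were at or above it in all 8. In bulk tissue these levels, that of Cd14 included, do not tell which cells express a gene.

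**Figure D1:**
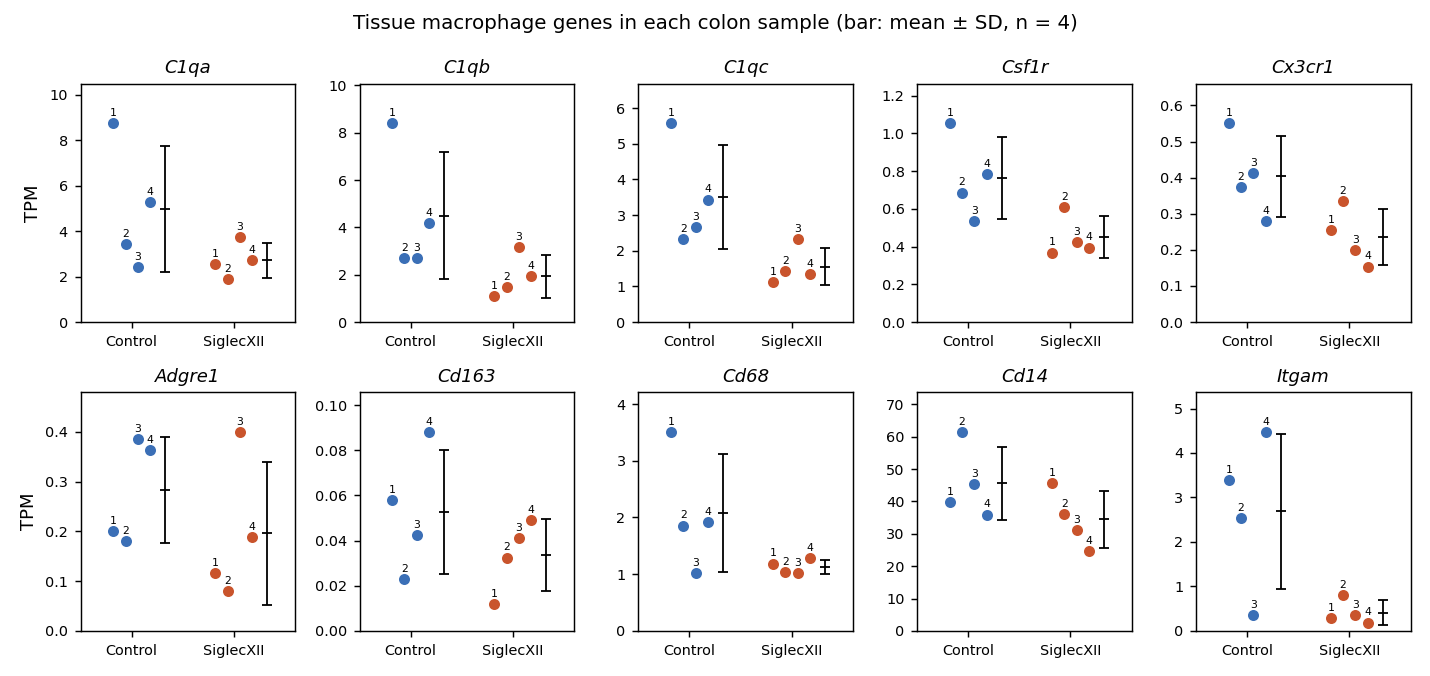
TPM of the 10 macrophage genes in each sample, with Control in blue, SiglecXII in orange, sample numbers beside the points, and bars for the mean ± SD (n = 4); each panel has its own axis from 0. Control sample 1 is the highest sample for the C1q chains, Csf1r, Cx3cr1 and Cd68, Control sample 3 lies among the SiglecXII samples for Itgam, and the groups overlap in every panel.

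The C1q chains were lower on average in SiglecXII colons, with samples of the groups overlapping. C1qa was at 8.75, 3.45, 2.43 and 5.29 TPM in Control samples 1 to 4 and at 2.54, 1.89, 3.75 and 2.74 TPM in SiglecXII samples 1 to 4. Control sample 1 was the highest and SiglecXII sample 2 the lowest. C1qb was at 8.40, 2.71, 2.70 and 4.18 TPM in Control samples and at 1.11, 1.50, 3.17 and 1.94 TPM in SiglecXII samples. For C1qb, SiglecXII sample 3 alone lay within the range of the Control samples. C1qc was at 5.57, 2.32, 2.67 and 3.43 TPM in Control samples and at 1.13, 1.42, 2.33 and 1.35 TPM in SiglecXII samples, the highest of which, sample 3, lay just above Control sample 2. The log2 difference (SiglecXII minus Control) was -0.59 for C1qa, -0.84 for C1qb and -0.78 for C1qc, with standard errors of 0.311, 0.328 and 0.237. In limma, unadjusted p was 0.0900, 0.0301 and 0.00906, and the adjusted p over 13164 genes was 0.515 for each chain. Without Control sample 1, in which all chains were highest, the log2 difference was -0.32 for C1qa, -0.55 for C1qb and -0.58 for C1qc.

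Thus the C1q differences did not pass the test after adjustment. Without adjustment, 2 of the 5 tested macrophage genes, C1qb and C1qc, were at a p of 0.05 or less, where 8.87% of all tested genes were (7.67% lower and 1.19% higher in SiglecXII samples). C1qc remained at or below 0.05 with each sample left out in turn, whereas C1qb missed it without Control sample 1 or 4 or SiglecXII sample 1, 2 or 4. Neither chain was at or below 0.05 after quantile normalization or after each sample was centered on its median. In bulk tissue, fewer cells of a type and less RNA per cell cannot be told apart.

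C1q needs its chains in equal number, and their ratios were compared within each sample. The TPM of C1qb was between 0.981 and 1.51 times that of C1qc, with a mean of 1.23 ± 0.21 in Control and 1.21 ± 0.22 in SiglecXII samples (SD, n = 4 each; two-sided exact permutation test, p = 0.914). C1qa was between 0.900 and 2.29 times C1qb, and between 0.912 and 2.24 times C1qc. For the latter ratios no difference between the groups larger than the spread of the samples was found (two-sided exact permutation test, p = 0.171 for C1qa to C1qb and p = 0.2 for C1qa to C1qc).

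Cd68, a lysosomal glycoprotein of phagocytes, was at 3.50, 1.85, 1.02 and 1.92 TPM in Control samples 1 to 4 and at 1.19, 1.03, 1.02 and 1.28 TPM in SiglecXII samples 1 to 4. The SiglecXII samples lay close together, at 1.13 ± 0.13 TPM (SD, n = 4), and the Control samples were spread from below the lowest of them to well above the highest. Its log2 difference was -0.47 (standard error 0.224; limma adjusted p = 0.515, unadjusted p = 0.0651), and -0.27 without Control sample 1.

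Cd14 was at 39.8, 61.4, 45.5 and 35.9 TPM in Control samples and at 45.7, 36.0, 31.2 and 24.7 TPM in SiglecXII samples. SiglecXII samples 1 and 2 lay within the Control range and samples 3 and 4 below it. The log2 difference was -0.40 (standard error 0.213; limma adjusted p = 0.515, unadjusted p = 0.0922). Without Control sample 2 it was -0.25, and without SiglecXII sample 4 it was -0.26. SiglecXII samples 3 and 4 are also those whose median gene was low.

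The other 5 genes were below the TPM limit of the main test, and their p-values come from a fit of 31352 genes with a value above 0 in any sample. In that fit, 6.52% of genes had an unadjusted p of 0.05 or less (5.35% lower and 1.17% higher), 3 of the 5 macrophage genes did, and adjusted p lay between 0.682 and 0.691 for all 5. On the log2(TPM + 1) scale the change of such low genes is understated.

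Itgam, the CD11b chain of the complement receptor CR3, had the largest log2 difference of the 10 genes. It was at 3.39, 2.53, 0.360 and 4.47 TPM in Control samples 1 to 4 and at 0.292, 0.812, 0.358 and 0.186 TPM in SiglecXII samples 1 to 4. Control sample 3 lay among the SiglecXII samples, and the other Control samples lay above every one of them. The mean was 2.69 ± 1.74 TPM in Control and 0.412 ± 0.276 TPM in SiglecXII samples (SD, n = 4 each). Its log2 difference was -1.23 (standard error 0.422; limma adjusted p = 0.682, unadjusted p = 0.0201). Without Control sample 3 the log2 difference was -1.66 with an adjusted p of 0.205 from limma, and without Control sample 1 the unadjusted p from limma was 0.0512. Itgb2, which encodes the CD18 partner of CD11b, was between 0.291 and 1.22 TPM in Control and between 0.181 and 0.469 TPM in SiglecXII samples. Its log2 difference was -0.30, and it was below the TPM limit of the main test. CD11b is also made by neutrophils.

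Csf1r, the receptor of Csf1 and Il34, was at 1.05, 0.686, 0.533 and 0.786 TPM in Control samples and at 0.368, 0.611, 0.424 and 0.395 TPM in SiglecXII samples. Only SiglecXII sample 2 lay above the lowest Control sample, and the log2 difference was -0.28 (standard error 0.112; limma adjusted p = 0.682, unadjusted p = 0.0397). Cx3cr1 was at 0.550, 0.373, 0.412 and 0.280 TPM in Control samples and at 0.255, 0.336, 0.200 and 0.153 TPM in SiglecXII samples. Again SiglecXII sample 2 was the sample that lay within the Control range, and the log2 difference was -0.18 (standard error 0.0742; limma adjusted p = 0.682, unadjusted p = 0.0407). Csf1r was no longer at an unadjusted limma p of 0.05 or less in 12 of 14 alternatives, the exceptions being those without Control sample 3 and without SiglecXII sample 2. After each sample was centered on its median its difference was -0.07 (limma unadjusted p = 0.729). Cx3cr1 was likewise no longer past it in 10 of 14, and its difference was above 0 in 1 other, median centering.

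Adgre1 was at 0.201, 0.181, 0.385 and 0.363 TPM in Control samples and at 0.116, 0.0802, 0.400 and 0.188 TPM in SiglecXII samples. The highest of all 8 was thus a SiglecXII sample, number 3. Cd163 lay between 0.0230 and 0.0881 TPM in Control and between 0.0120 and 0.0492 TPM in SiglecXII samples. At these levels no difference between the groups was detectable (log2 difference -0.10 for Adgre1 and -0.03 for Cd163; limma adjusted p = 0.691 for each, unadjusted p = 0.304 and 0.283). Without SiglecXII sample 3 the log2 difference of Adgre1 was -0.18 (limma unadjusted p = 0.0453).

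In all, 10 of 10 genes had a log2 difference below 0, with a median of -0.44. So did 78.1% of the 13164 tested genes, whose median difference was -0.15, and 68.5% of the 31352 genes above 0 in any sample. After adjustment in limma 0 of the 10 were at 0.05 or less, where 5 of the tested genes (0.038%) were and 3 (0.00957%) in the fit of 31352 genes. In the latter fit, 5 of the 10 had an unadjusted p of 0.05 or less. The groups overlapped in 10 of 10 genes, while they did not overlap in 5.11% of tested genes (4.06% lower in SiglecXII samples) and in 3.65% of all genes above 0 (2.97% lower). Because the genes share samples and vary together, these counts are not independent of each other.

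**Figure D2:**
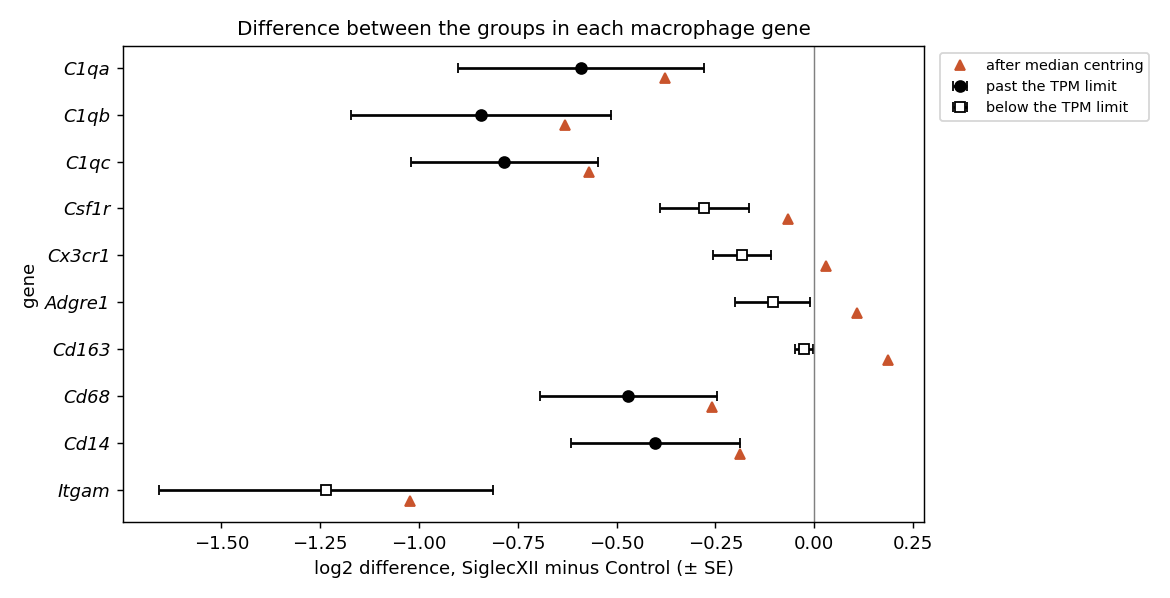
Log2 difference (SiglecXII minus Control) of each macrophage gene with its standard error, as filled circles for genes past the TPM limit and open squares for genes below it; orange triangles give the difference after each sample was centered on its median. All 10 circles and squares are below 0, and after centering Cx3cr1, Adgre1 and Cd163 are above it.

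Scaling moved these differences. Centering each sample on its median brought the median difference of the tested genes from -0.15 to 0.06, and among genes at an unadjusted p of 0.05 or less the higher ones went from 157 of 1167 to 1137 of 1422 (704 of 1112 after quantile normalization). After this centering 7 of the 10 macrophage genes were below 0, with Adgre1 at 0.11, Cx3cr1 at 0.03 and Cd163 at 0.19, and their median difference was -0.22. After quantile normalization 10 of 10 were below 0, with a median of -0.27. Itgam was the gene at an unadjusted p of 0.05 or less after either scaling in the fit without the TPM limit. For genes near 0 TPM, centering adds the shift of a sample's median to a value that is itself close to 0.

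Whether the genes varied together was asked over the 8 samples, with Pearson's r and Spearman's rho of log2(TPM + 1), exact permutation of all pairings, and Benjamini-Hochberg adjustment over the 45 pairs. The r was above 0 in 41 pairs, with a median of 0.59, and 0.33 once the group means were removed. Adjusted p for r was 0.05 or less in 7 pairs. For rho it was so in 0 pairs, where 6 had an unadjusted p of 0.05 or less.

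C1qb and C1qc were the closest pair (r = 0.977, permutation p = 0.000248, adjusted 0.0112; rho = 0.905, permutation p = 0.00456, adjusted 0.103). Without the 2 samples farthest from the median of C1qb their r was 0.933, and with the group means removed it was 0.977. Among all tested genes, C1qc ranked second in r with C1qb, and C1qb second in r with C1qc. C1qa followed C1qb (r = 0.934, permutation p = 0.00117, adjusted 0.0262; rho = 0.881, permutation p = 0.00724, adjusted 0.109), with an r of 0.685 without the 2 farthest samples. C1qa with C1qc gave r = 0.887 (permutation p = 0.00337, adjusted 0.0379; rho = 0.643, permutation p = 0.0962, adjusted 0.287) and 0.486 without them. The latter relation therefore rests in part on Control samples 1 and 4, in which C1qa was highest.

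Csf1r and Itgam gave r = 0.894 (permutation p = 0.00216, adjusted 0.0324; rho = 0.952, permutation p = 0.00114, adjusted 0.0513) and 0.930 without the 2 farthest samples. With samples centered on their median this r was 0.521. The remaining 3 pairs at the limit were Cd68 with C1qa (r = 0.903, rho = 0.714), Cd68 with Csf1r (r = 0.868, rho = 0.619) and Csf1r with C1qc (r = 0.858, rho = 0.810). Their permutation p was 0.00685, 0.00776 and 0.0063 for r (adjusted 0.0499 for each) and 0.0576, 0.115 and 0.0218 for rho (adjusted 0.284, 0.287 and 0.245). Without the 2 farthest samples, which included Control sample 1 in each, r was 0.438, 0.442 and 0.565. The relations of Cd68 therefore rest on those samples, and that of Csf1r with C1qc rests on them in part.

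**Figure D3:**
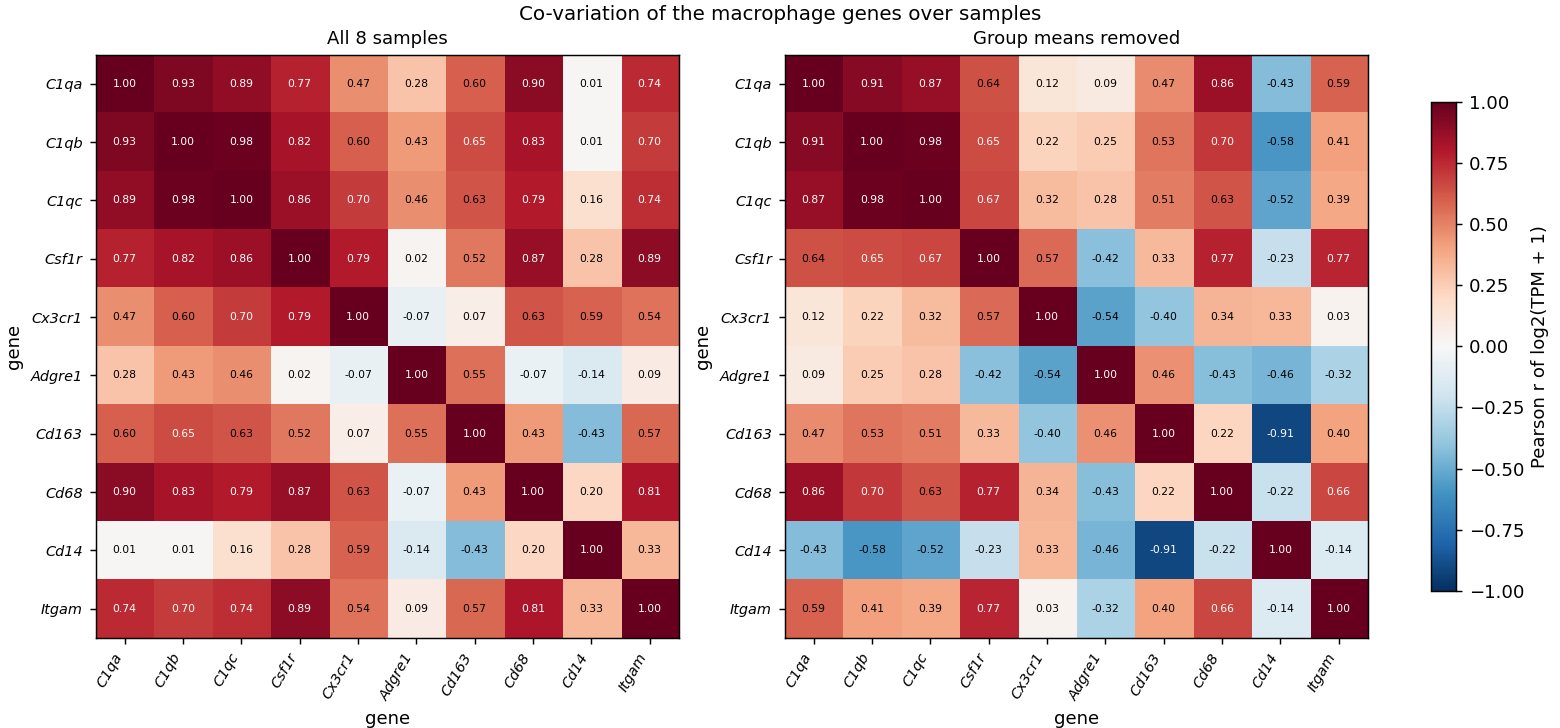
Pearson r of log2(TPM + 1) for each pair of macrophage genes over all 8 samples (left) and after each group's mean was subtracted (right), on a color scale from -1 to 1. The C1q chains, Csf1r, Cd68 and Itgam form the block of high values on the left, while r on the left is between -0.14 and 0.55 for Adgre1 and between -0.43 and 0.59 for Cd14.

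The median r with the other 9 genes was lowest for Adgre1 and Cd14 over all 8 samples. The r of Adgre1 with the other 9 genes was between -0.14 and 0.55, with a median of 0.09, and that of Cd14 was between -0.43 (with Cd163) and 0.59 (with Cx3cr1), with a median of 0.16. For Cd68 and Csf1r the median r with the other 9 genes was 0.79, and for the C1q chains it was from 0.70 to 0.74. The low median of Adgre1 rests on Control sample 3 and SiglecXII sample 3, its 2 highest, without which it was 0.59, and on the scaling, since it was 0.42 after each sample was centered on its median. That of Cd14 was -0.17 after this centering and -0.20 without Control sample 2 and SiglecXII sample 4, its 2 farthest. The medians of other genes also moved without their 2 farthest samples, to 0.15 for Cd68 and 0.25 for C1qa. With all tested genes, by contrast, Cd14 had a median r of 0.58, while Cd68 had 0.06, Adgre1 -0.08, and the C1q chains from -0.05 to 0.07. These medians are descriptions over 8 samples, and no test of their differences was made.

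**Figure D4:**
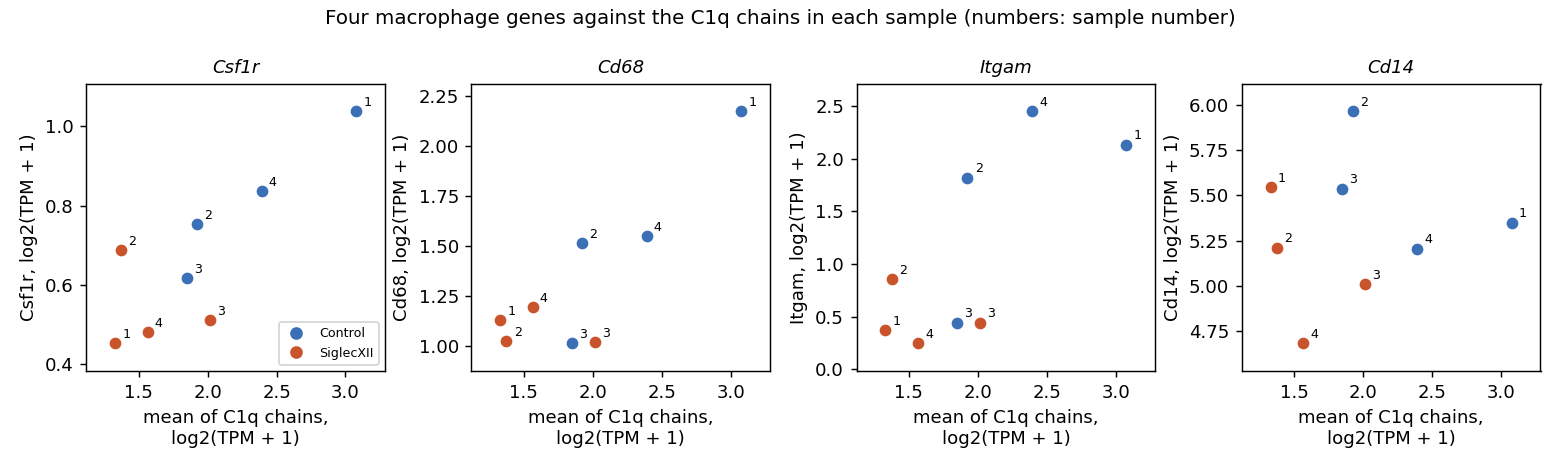
Log2(TPM + 1) of Csf1r, Cd68, Itgam and Cd14 against the mean of the C1q chains in each sample, with Control in blue, SiglecXII in orange and sample numbers beside the points. Csf1r, Cd68 and Itgam are highest in Control samples with high C1q, most of all in samples 1 and 4, and Cd14 is highest in Control sample 2.

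Relative to the C1q chains of the same sample, none of the other 7 genes had a difference between the groups that was larger than the spread of the samples by the test used. The measure was the log2 level of a gene minus the mean log2 level of the 3 chains, compared by two-sided exact permutation of 70 labelings, which allow no p below 0.0286. The difference (SiglecXII minus Control) was 0.27 for Cd68 (permutation p = 0.314), 0.46 for Csf1r (permutation p = 0.114), 0.34 for Cd14 (permutation p = 0.514) and -0.49 for Itgam (permutation p = 0.286). For the low genes it was 0.63 for Adgre1 (permutation p = 0.0571), 0.56 for Cx3cr1 (permutation p = 0.143) and 0.71 for Cd163 (permutation p = 0.0857). Adjusted over the 7 genes, the permutation p was between 0.25 and 0.514. The pseudocount of 1 compresses levels near 0 TPM in this measure.

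Of all tested genes, the 5 closest to the mean of the 10 standardised macrophage genes over the 8 samples were Trappc2 (r = 0.981), Gm15710, Ada, Pla2g12a and Laptm5 (r = 0.959). Laptm5, a lysosomal membrane protein of blood cells, was the one among them on the list of other macrophage genes. It was at 3.19, 1.97, 1.53 and 2.52 TPM in Control samples and at 1.15, 1.43, 1.13 and 0.927 TPM in SiglecXII samples, with no overlap between the groups. Of all tested genes, 4.06% were likewise lower in SiglecXII samples with no overlap. For the mean of the 3 C1q chains the closest genes were Cetn2 (r = 0.983), Rpl12, H2afj, Trappc2 and Sf3b6 (r = 0.960).

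Of the ligands and partners of the 10 genes, 12 of 16 were tested. At an unadjusted p of 0.05 or less there was 1 gene, where 8.87% of all tested genes were, and at an adjusted one 0. That gene was Il34, which encodes a ligand of Csf1r, at 16.3, 18.3, 19.1 and 18.4 TPM in Control samples and at 24.0, 21.9, 19.9 and 21.7 TPM in SiglecXII samples. The groups did not overlap, as in 5.11% of all tested genes. The log2 difference was 0.27 (standard error 0.102; limma adjusted p = 0.515, unadjusted p = 0.0288). Csf1, the other ligand, was between 0.859 and 1.14 TPM in Control and between 0.340 and 0.870 TPM in SiglecXII samples. Cx3cl1, the ligand of Cx3cr1, was at a mean of 55.8 TPM in Control and 56.7 TPM in SiglecXII samples (log2 difference 0.05, limma adjusted p = 0.926). Tlr4 and Ly96, which receive lipopolysaccharide from Cd14, differed by -0.02 and 0.30 on the log2 scale (limma adjusted p = 0.950 and 0.515). The largest differences were those of complement C3 (0.99), of haptoglobin Hp, which delivers hemoglobin to Cd163 (0.78), and of heme oxygenase Hmox1 (-0.58), with an adjusted p of 0.648, 0.523 and 0.539 from limma. That of C3 rests on SiglecXII sample 4, at 84.2 TPM, where the other SiglecXII samples were at 1.08, 1.73 and 5.26 TPM and the Control samples at 1.21 to 5.35 TPM, and without that sample it was -0.18.

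Of 25 other macrophage genes, 13 were tested. At an unadjusted p of 0.05 or less, 3 were lower in SiglecXII samples and 0 higher, where 7.67% of all tested genes were lower and 1.19% higher. At an adjusted p of 0.05 or less there were 0. The 3 were Sirpa, the receptor for the CD47 signal that restrains phagocytosis (log2 difference -0.84), the uptake receptor Axl (-0.68) and Laptm5 (-0.59), at an adjusted p of 0.515 each from limma. The median log2 difference of the 13 was -0.15, as it was for all tested genes. The cathepsin gene Ctss was at a mean of 404.6 TPM in Control and 412.9 TPM in SiglecXII samples (log2 difference 0.03).

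Some genes of other cell types were also at lower levels in SiglecXII samples. Of 7 neutrophil genes 3 were tested, and S100a8 and S100a9, the chains of calprotectin, were lower in SiglecXII samples at an unadjusted p of 0.05 or less. Over all tested genes, 7.67% were lower at that p. S100a8 was at 9.61, 22.4, 11.9 and 40.9 TPM in Control samples and at 4.03, 1.38, 0.957 and 3.09 TPM in SiglecXII samples, a log2 difference of -2.61 (limma adjusted p = 0.333). S100a9 was between 13.6 and 89.1 TPM in Control and between 1.25 and 5.39 TPM in SiglecXII samples, a log2 difference of -2.94 (limma adjusted p = 0.515). The groups did not overlap in either gene, where 4.06% of all tested genes were lower in SiglecXII samples with no overlap. Ly6g was between 229.8 and 356.1 TPM in all samples, so that the summed level of the list, from 265.3 to 460.1 TPM in Control and from 232.0 to 364.7 TPM in SiglecXII samples, is mostly that of Ly6g. Of the other genes of this list, Elane was listed at 0 in every sample, and Csf3r was between 0.0137 and 1.52 TPM in Control and between 0 and 0.136 TPM in SiglecXII samples. Cxcr2 was between 0.140 and 1.31 TPM in Control and between 0.0398 and 0.217 TPM in SiglecXII samples. Control sample 3, in which Itgam was low, had 11.9 TPM of S100a8 and 0.0355 TPM of Csf3r. Control sample 1, with Itgam at 3.39 TPM, had less of both, at 9.61 TPM of S100a8 and 0.0137 TPM of Csf3r. Its Cxcr2 was higher, at 0.225 TPM against 0.140 TPM in Control sample 3. Control samples 2 and 4, with Itgam at 2.53 and 4.47 TPM, had the most S100a8 and Csf3r. They had 22.4 and 40.9 TPM of S100a8 and 1.52 and 0.806 TPM of Csf3r. Over the 8 samples, Itgam had an r of 0.460 with the summed neutrophil list (exact permutation p = 0.258, adjusted 0.642). The part of neutrophils in the Itgam difference was not tested.

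Of 8 smooth muscle genes, 4 were lower in SiglecXII samples at an unadjusted p of 0.05 or less, where 7.67% of all tested genes were lower. Their log2 differences were -0.78 for Myh11, -0.75 for Cnn1, -0.73 for Smtn and -0.70 for Des (limma adjusted p = 0.515 for each). Without SiglecXII sample 4, whose median gene was the lowest, these differences were -0.51, -0.49, -0.44 and -0.47. The smooth muscle list summed to 725.5 to 1165 TPM in Control and 350.7 to 761.5 TPM in SiglecXII samples. The endothelial gene Pecam1 was at -0.59 and was 1 of 2 tested genes in its list, which summed to 5.29 to 7.59 TPM in Control and 4.11 to 5.15 TPM in SiglecXII samples. The stem cell gene Lgr5 was at -0.47 and 1 of 12 in the epithelial list (limma adjusted p = 0.515 for each). For monocytes (1 of 6 genes tested), mast cells (1 of 7), lymphocytes and all leukocytes (1 of 8), fibroblasts (5 of 6), enteric neurons and glia (1 of 6), adipocytes (3 of 5) and red blood cells (3 of 4), 0 tested genes were at an unadjusted p of 0.05 or less. In the order of these lists, the largest log2 difference among the tested genes was that of Plac8 (0.11), Kit (-0.19), Jchain (-1.15), Col3a1 (-0.21), Uchl1 (-0.37), Fabp4 (-0.52) and Hbb-bs (1.35). None of the 8 dendritic cell genes was tested, with sums from 0.959 to 2.10 TPM in Control and from 0.610 to 0.848 TPM in SiglecXII samples. Of the monocyte genes, Fcnb was listed at 0 in every sample and Plac8 was at a mean of 2049 TPM in Control and 2216 TPM in SiglecXII samples. Ptprc, which marks all leukocytes, was at 0.761 TPM in Control and 0.473 TPM in SiglecXII samples on average.

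Whether the macrophage genes varied with these lists was asked in the same way over the 8 samples. Of 140 relations between a macrophage gene and the summed level of a list, on the log2 scale, 16 had an unadjusted permutation p of 0.05 or less for r, and 0 an adjusted one for r or for rho. The closest were those of the C1q chains with the genes of enteric neurons and glia, at r = 0.936 for C1qa, 0.924 for C1qb and 0.906 for C1qc (exact permutation p = 0.00156, 0.00141 and 0.00114, adjusted 0.0729 for each). Their rho was 0.738, 0.857 and 0.905 (exact permutation p = 0.0458, 0.0107 and 0.00456, adjusted 0.619 for each), and without the 2 farthest samples r was 0.633, 0.954 and 0.903. That list summed to 4.60 to 9.89 TPM in Control and 3.83 to 4.99 TPM in SiglecXII samples, and is mostly Uchl1, at 8.59 TPM in Control sample 1. Cd68 gave r = 0.872 with it (exact permutation p = 0.0211, adjusted 0.338; rho = 0.381, exact permutation p = 0.360, adjusted 0.763) and -0.033 without the 2 farthest samples, Control samples 1 and 4.

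With the list of lymphocytes and all leukocytes, r was between 0.802 and 0.833 for Cd68 and the C1q chains (exact permutation p between 0.0146 and 0.0277, adjusted 0.338 for each), and rho between 0.333 and 0.548 (exact permutation p between 0.171 and 0.428, adjusted between 0.704 and 0.799). Without the 2 farthest samples of each gene, which included Control sample 1, r was -0.333 for Cd68, -0.629 for C1qa, 0.461 for C1qb and 0.578 for C1qc, so that these relations rest on those samples. The list summed to 2.30 to 17.5 TPM in Control and 1.96 to 3.04 TPM in SiglecXII samples, with Jchain at 11.9 TPM in Control sample 1. With the epithelial list, r was 0.561 for Cd14 (exact permutation p = 0.153, adjusted 0.563) and -0.742 for C1qa (exact permutation p = 0.0282, adjusted 0.338). Without the 2 farthest samples of each gene it was 0.291 and -0.365. For Cd14, r was larger in size with the mast cell list, at 0.814 (exact permutation p = 0.0176, adjusted 0.338). With the fibroblast list it was -0.725 (exact permutation p = 0.0423, adjusted 0.375). Without its 2 farthest samples these were 0.303 and 0.017. The median r of Cd14 with all tested genes was 0.58. Which cells expressed Cd14 was not tested. Whether the macrophage gene differences are smaller at a given mix of cells was not tested.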

How the data were processed

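Distal colon RNA of 4 Control and 4 SiglecXII samples was analysed. The authors quantified genes with kallisto and deposited log2(TPM + 1). The submitters' processing notes name kallisto 0.45.0 and GRCm38, whereas the paper's methods name another version, a human reference and a test on counts that were not used here. Of the deposited gene identifiers, 98.3% are in GENCODE M21. The labels name a total RNA kit and the methods an mRNA kit. TPM keeps no depth, so the number of samples limits the precision.

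The deposited log2 values were fitted in limma 3.58.1 under R 4.3.3 (two-sided moderated test with a mean-variance trend), and p-values were adjusted by Benjamini-Hochberg over the 13164 genes at 1 TPM or more in 4 or more samples. Low genes were read from the same fit without the TPM limit. The code was tested on simulated data. Exact permutation used Python 3.11.15 and scipy 1.17.1, and figures matplotlib 3.10.9. Positions are from GENCODE M21 and sequences from RefSeq, where C1qa, Adgre1, Csf1r and Cd14 had no entry by symbol.

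The 10 genes and all lists were chosen with earlier results of these data known. Named are the 10 genes, genes of each list at an unadjusted p of 0.05 or less, up to 3 per list with the largest difference, and the 5 most alike; some results are not reported here. Outside this rule, Csf1, Cx3cl1, Tlr4, Ly96, Itgb2 and Spi1 were named for their role, Gm49368 for its overlap, and Ctss, Csf3r, Cxcr2, Elane, Fcnb, Ptprc, Ms4a7, C1s1, Dcn and Trem2 after their values were seen. Alternatives were other TPM limits, a pseudocount of 0.1, quantile normalization, median centering, array weights, the sample number as a block, and samples left out.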

Additional observations from a re-analysis of the deposited data

Results flagged for a closer look

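Among 20 groups of 4 samples, 1 group for each of the 10 macrophage genes in Control and in SiglecXII samples, 0 had a sample far from the other 3 by Dixon's 95% value, where about 1 is expected by chance.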

How the results depend on the processing

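Of 146 differences of single macrophage genes under the alternatives, 102 kept their direction and their side of an unadjusted p of 0.05, 34 were no longer past it, 7 newly were, and 3 reversed, all with median centering (Adgre1 0.11, Cx3cr1 0.030, Cd163 0.186). The adjusted p of these genes from limma was between 0.171 and 0.991. The count of tested macrophage genes at an unadjusted p of 0.05 or less (2) was 0 with a TPM limit of 5, quantile normalization and median centering, 4 with array weights, and between 1 and 4 with each sample left out, being 4 without Control sample 3 and 1 without Control sample 1 or 4 or SiglecXII sample 2 or 4. The median difference of the 10 genes (-0.44) was -0.67 with a pseudocount of 0.1 and -0.22 with median centering. Adgre1 relative to the C1q chains (0.63) was between 0.349 and 0.827 with each sample left out, the latter without Control sample 3 (exact permutation p = 0.0286, not adjusted and the smallest these labelings allow). Over all samples Adgre1 itself differed by -0.10, and the C1q chains by -0.59, -0.84 and -0.78. This measure therefore mostly carries the difference of the chains with its sign reversed.

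Over all tested genes, 5 were at an adjusted p of 0.05 or less, and 3 with no TPM limit, 3 with a limit of 5, 18 with array weights, 2 without SiglecXII samples 3 and 4, and between 2 and 6 with each sample left out. At an unadjusted p they were 1167, and 2043, 699, 1851, 362 and between 483 and 2365 under the same alternatives. The sample numbers showed no sign of pairing the samples, as deviations of same-numbered samples correlated at between -0.20 and 0.10. Such a check cannot establish that the samples were unpaired. With the number as a block in place of no pairing, 1 macrophage gene (C1qc) and 945 of all tested genes were at an unadjusted p of 0.05 or less. The difference of C3 (0.99) was between -0.184 and 1.60 with each sample left out, an alternative chosen after seeing the data, being below 0 without SiglecXII sample 4. The cause of these shifts was not tested. Values below 1 TPM and the lack of depth limit what can be said of Csf1r, Cx3cr1, Adgre1 and Cd163.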

Other observations

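C3, C1s1 and Dcn were at their highest in SiglecXII sample 4, a sample in which the C1q chains were not high. C3, the central complement protein, was at 84.2 TPM there and between 1.08 and 5.35 TPM in the other 7 samples. C1s1, a protease that joins C1q in the C1 complex, was at 12.8 TPM in that sample and at 0.557 to 3.42 TPM in the others. The matrix proteoglycan gene Dcn was at 57.1 TPM in SiglecXII sample 4 and at 5.58 to 21.9 TPM in the others. The C1q chains of this sample were at 2.74, 1.94 and 1.35 TPM, within the range of the other SiglecXII samples. Trem2, a lipid receptor of macrophages, was highest in it too, at 1.22 TPM against 0.0268 to 0.278 TPM elsewhere.

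Ms4a7, a membrane protein of tissue macrophages, was between 0.743 and 0.896 TPM in Control and between 0.193 and 0.384 TPM in SiglecXII samples, below the TPM limit and with no overlap between the groups. Of all genes above 0 in any sample, 2.97% were likewise lower in every SiglecXII sample than in every Control sample. These genes were chosen after their values were seen, and none was tested in this respect.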
